A study of Drosophila melanogaster with 54 samples.

Results

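Eggs laid by png mutant females carried ribosome footprints that were spread very unevenly over their mRNAs. Of 54 samples in the study, 4 are the subject here: ribosome footprints and RNA of png eggs, each measured in 1 library without and 1 library with cycloheximide, a drug that stalls elongating ribosomes. The females were homozygous for the allele labelled png1058 (png1058/png1058), of which the labels give no more than the name. The comparison libraries were 4 from activated eggs of wild-type OregonR females and 4 from mature oocytes of OregonR females, again footprints and RNA in both cycloheximide states. Virgin females of either genotype were kept with spermless twine (HB5) males, so both kinds of egg were activated but not fertilised, and laid eggs were gathered over 2 h at 23°C. Mature oocytes were not laid and were not activated. RNA libraries held fragments of poly(A)-selected RNA. An mRNA was ranked by its efficiency within png eggs, log2(footprint RPKM + 1) minus log2(RNA RPKM + 1), averaged over both states. RPKM is a read density, scaled by the length of the transcript and the size of the library. Of 5842 transcripts listed in all 12 libraries, 5625 had a mean of 10 RPKM or more of RNA in png eggs and are called abundant here. The 15 highest and the 15 lowest of these in efficiency are described as best and least translated, beside deciles of the whole ranking and a set of known regulators.

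PNG is a protein kinase that works in a complex with PLU and GNU and is switched on when the egg is activated. Drosophila eggs do not transcribe their genome at first, so the proteins made after activation come from mRNAs the mother stored, and the kinase controls the translation of many of these. A ribosome shields a short piece of the mRNA it is reading. Footprints per RNA therefore report how many ribosomes a typical copy of an mRNA carries per length of coding sequence, relative to other mRNAs. RNA values count only the copies that poly(A) selection captured. Differences in capture between mRNAs or between kinds of sample were not measured, which limits RNA levels and efficiencies alike.

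There was 1 library per assay, genotype and cycloheximide state, so the 2 states served as the only repeats. The p-values measure the spread between these few libraries, and variation between biological samples was not measured. Library totals were about 9970000 and 10400000 reads for png egg footprints and 13800000 and 17400000 for png egg RNA, as worked out from the steps of the RPKM values. Footprint libraries held about 8770000 and 9860000 reads in activated eggs and 4750000 and 3300000 in mature oocytes, and the 4 RNA libraries of these held 12200000 to 13300000. The pair of png egg RNA libraries differed by little more than counting error (SD of the log2 ratio 0.0586, of which counting alone gives 0.0478). Efficiency in the 2 states of png eggs had a rank correlation of 0.99 over 5625 transcripts, and 11 transcripts differed by more than 1 on the log2 scale. The oocyte states differed by more than 1 for 646 transcripts, so a single oocyte value is less certain. Of 6 mRNAs listed as germline markers, 5 were in the table, with a summed RNA of 1276 to 1305 RPKM in png eggs, 946 to 1053 in activated eggs and 778 to 822 in mature oocytes. Of 23 follicle cell genes 2 were in the table, with a summed RNA of 10.4 to 13.9 RPKM in png eggs, 7.89 to 8.91 in activated eggs and 4281 to 7916 in mature oocytes. The level of these follicle cell genes was thus far higher in every oocyte library. Their part in the oocyte values was not tested, and in such bulk samples fewer cells of a type and less RNA per cell cannot be told apart. None of 21 other somatic and sperm genes was in the table, which lists only transcripts found in all 12 libraries.

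Among the abundant mRNAs, efficiency in png eggs ran from -8.07 to 4.64 on the log2 scale, with a median of -0.38 (SD 1.81 over transcripts). Its 10th and 90th percentiles were -2.97 and 1.77. With limma, footprints were higher than RNA for 1920 of 5840 transcripts tested (32.9%) and lower for 2802 (48.0%), at a Benjamini-Hochberg adjusted threshold of 0.05. The split depends on where equality is set. With every library centred on its own median, which moved the median difference of all transcripts to 0.08 from -0.36, 2579 were higher and 2354 lower. The 1920 transcripts with more footprints than RNA held 80.3% and 79.7% of the summed footprint RPKM of png eggs (states without and with cycloheximide) and 29.7% and 29.6% of the RNA. The 2802 with fewer held 9.84% and 10.4% of footprints and 57.1% and 57.2% of RNA. Below, pairs of values give the state without cycloheximide and then the state with it.

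**Figure D1:**
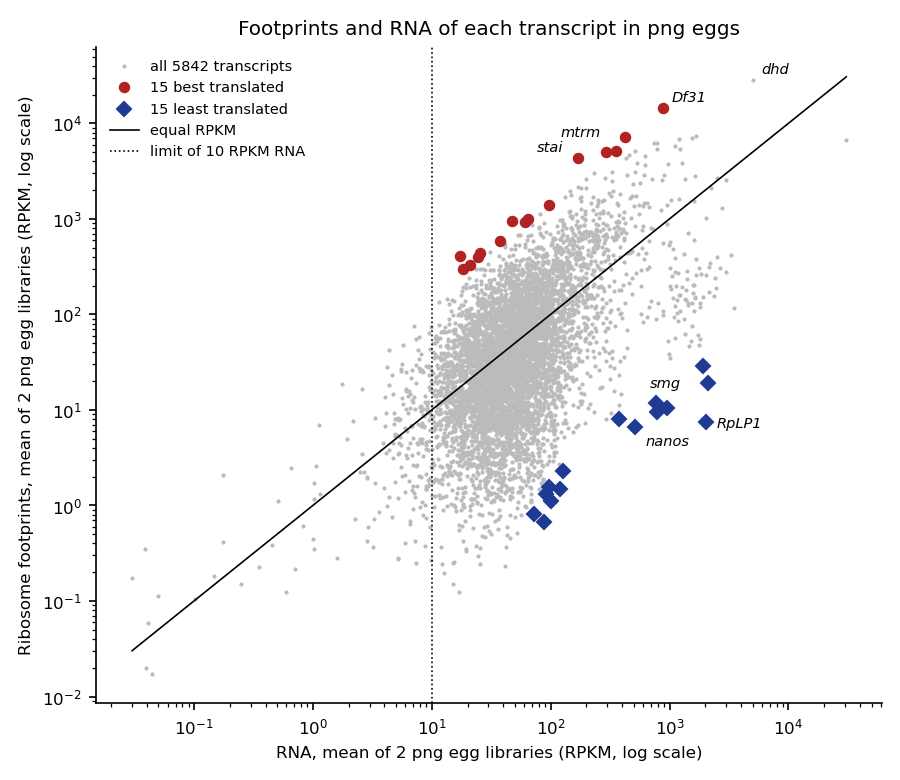
Mean footprint RPKM (vertical, log scale) against mean RNA RPKM (horizontal, log scale) of 5842 transcripts in png eggs, with the 15 best translated (red circles) and the 15 least translated (blue diamonds) mRNAs at 10 RPKM of RNA or more. At similar RNA levels footprints differed by several orders of magnitude, and a separate cloud of very abundant mRNAs with few footprints lies at the lower right, where the least translated RpLP1 has 2004 and 2029 RPKM of RNA.

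The best translated decile of the abundant mRNAs (562 mRNAs, efficiency 1.77 and above) held about as much of the footprints as all other listed transcripts together. Its share of the summed footprint RPKM was 49.9% and 49.2%, against 10.9% and 10.9% of the RNA. The next decile held 16.8% and 17.0% of footprints with 8.29% and 8.25% of RNA. At the other end, the least translated decile (563 mRNAs, -2.97 and below) held 0.933% and 1.10% of footprints with 19.8% and 20.0% of the RNA, more RNA than any other decile. The best 100 mRNAs held 16.9% and 16.5% of footprints, and the least translated 100 held 0.0903% and 0.119% although they made up 5.46% and 5.57% of the RNA. Shares of the same mRNAs in wild-type samples are given as a description, since deciles ranked on png eggs are bound to be less extreme elsewhere. The best decile of png eggs held 26.6% and 26.8% of footprints in activated eggs and 37.3% and 34.0% in mature oocytes. The least translated decile held 6.31% and 5.93% in activated eggs and 2.77% and 3.05% in mature oocytes. Counted as reads rather than RPKM, which weights an mRNA by its length, the best decile held 43.7% and 43.8% of png egg footprints and the least translated 0.692% and 0.801%. These are shares of the listed transcripts, of which the abundant ones held about 83.6% and 84.1% of all reads of the footprint libraries and 62.8% and 63.9% of those of the RNA libraries, reckoned as RPKM times length. Values are relative to the library, so how much protein png eggs made in all was not measured.

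**Figure D2:**
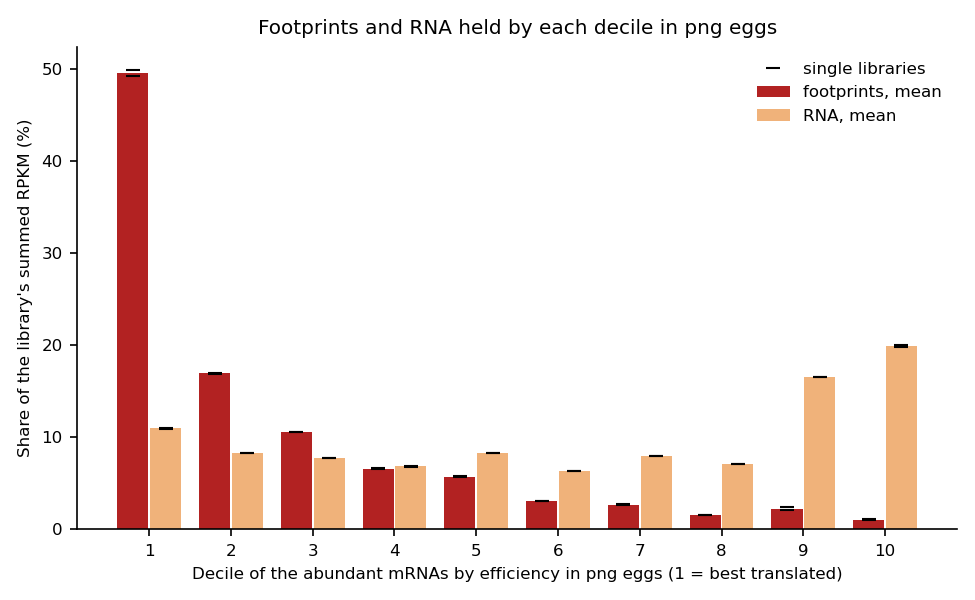
Share of the summed RPKM of a png egg library (vertical, %) held by each decile of the 5625 abundant mRNAs, from the best translated (1) to the least translated (10), for footprints (red) and RNA (orange). Bars are means of 2 libraries and dashes the single libraries; footprint shares fall from 49.9% and 49.2% in decile 1 to 0.933% and 1.10% in decile 10, where the RNA share is largest.

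Footprints were concentrated on few mRNAs. In png eggs 244 and 239 transcripts held 50% of the summed footprint RPKM, against 455 and 454 in activated eggs and 184 and 78 in mature oocytes. Follicle cell markers held 3.44% and 10.2% of the oocyte footprints, and the largest transcript of the oocyte library with cycloheximide was the chorion gene Cp15 (9.70%), whose part in the oocyte values was not tested. The 10 mRNAs with most footprints in png eggs held 11.9% and 12.3%, or 6.47% and 6.71% counted as reads. The largest was dhd, deadhead, a thioredoxin of the female germline that acts on sperm chromatin after fertilisation, with 27212 and 28943 RPKM of footprints and 5066 and 5023 RPKM of RNA in png eggs. It alone held 3.54% and 3.60% of footprints. In activated eggs dhd had 1197 and 870 RPKM of footprints on 4903 and 4722 RPKM of RNA, so its RNA was alike in both kinds of egg while its footprints were not. Next in png eggs came the chromatin protein mRNA Df31 with 14024 and 14663 RPKM of footprints. The others were cib, the cyclophilin Cyp1, the small heat shock protein Hsp26, RpL41, ATPsynC of the ATP synthase, the translational repressor tral, the peroxiredoxin Prx2 and the chaperone Hsp83, between 5540 and 7939 RPKM. Footprints on Hsp26 were 6685 and 7291 RPKM in png eggs, 489 and 404 in activated eggs and 8650 and 9782 in mature oocytes. Prx2 was likewise lowest in activated eggs, with 6283 and 6064 RPKM in png eggs, 427 and 313 in activated eggs and 2878 and 3151 in mature oocytes. The values of dhd, Hsp26 and Prx2 in png eggs thus stood nearer to those of oocytes than to those of activated eggs. Df31 went the other way, with 11692 and 12964 RPKM of footprints in activated eggs and 5286 and 3957 in mature oocytes.

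The mRNAs with most RNA were largely a different set, with dhd and RpL41 in both. Of the 10 largest in RNA, 8 encode ribosomal proteins, beside dhd and the elongation factor eEF1alpha1, and together they held 10.2% and 10.00% of the RNA and 5.34% and 5.53% of the footprints. Counted as reads, these short mRNAs held 2.16% and 2.15% of the RNA and 1.66% and 1.73% of the footprints. RpL41 was the largest, with 6002 and 7250 RPKM of footprints and 30785 and 30541 RPKM of RNA in png eggs. Its counted coding length is so short, at 28 bases, that its RPKM is uncertain. RpS25 had 94.0 and 141 RPKM of footprints on 3435 and 3470 RPKM of RNA, an efficiency of -5.18 and -4.61, while eEF1alpha1 had 2678 and 2679 on 2435 and 2565. Both had much RNA, and the footprints of RpS25 were far fewer.

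The best translated mRNA of png eggs was stai, which encodes the microtubule regulator stathmin. It had 4276 and 4352 RPKM of footprints and 168 and 174 RPKM of RNA, an efficiency of 4.66 and 4.63. In activated eggs it had 615 and 594 RPKM of footprints on 314 and 317 RPKM of RNA (efficiency 0.97 and 0.90). In mature oocytes its efficiency was 3.06 and 3.43, nearer to png eggs than to activated eggs. Tsp97E, a tetraspanin, followed with 413 and 412 RPKM of footprints on 18.2 and 16.1 RPKM of RNA, and Atg8a, the ubiquitin-like protein of autophagosomes, with 874 and 1011 on 50.4 and 43.6. Both had high efficiencies in activated eggs as well (3.26 and 3.58 for Tsp97E, 3.52 and 3.55 for Atg8a). The fourth was mtrm, matrimony, whose protein holds the mitotic kinase Polo in check during female meiosis. It had 5183 and 4857 RPKM of footprints on 293 and 292 RPKM of RNA in png eggs, against 135 and 190 on 514 and 519 in activated eggs and 3990 and 3657 on 583 and 533 in mature oocytes. The 2 egg genotypes lay far apart for mtrm, at 4.14 and 4.05 in png eggs and -1.92 and -1.44 in activated eggs, with oocytes at 2.77 and 2.78.

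Of the next mRNAs in rank, Swip-1, cib (a beta-thymosin) and, last of the 15, capt (cyclase-associated protein) encode proteins that bind actin and had mean efficiencies of 4.07, 4.06 and 3.83 in png eggs. Of the 3, cib had the most footprints, 6937 and 7330 RPKM on 410 and 442 RPKM of RNA, against 2204 and 2278 on 509 and 510 in activated eggs. Its efficiency of 4.08 and 4.05 in png eggs stood beside 2.11 and 2.16 in activated eggs and 2.37 and 2.65 in mature oocytes. Df31 (4.01 and 4.04), the catalytic subunit of protein phosphatase 1 Pp1-87B (3.88 and 3.95), the Wnt carrier wls (3.85 and 3.93) and the cathepsin CtsL1 (3.84 and 3.83) had efficiencies of 2.43 or more in activated eggs too. For CG15047 and CG9135 the 2 kinds of egg lay on opposite sides of 0. CG15047 had 3.96 and 3.89 in png eggs, -2.19 and -2.80 in activated eggs and 2.06 and 0.89 in mature oocytes, and CG9135 had 3.98 and 3.86 in png eggs, -0.68 and -0.96 in activated eggs and 1.54 and 1.42 in mature oocytes. CNPYb (3.97 and 3.98) and CG2493 (3.98 and 3.95) complete the list. The last of the 15, capt, stood at 3.83 and the next mRNA, tacc, at 3.81, so the end of the list marks no gap. Together the 15 held 5.45% and 5.39% of png egg footprints with 0.431% and 0.438% of the RNA.

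These rankings were set beside wild-type libraries they had not used. All 15 of the best were in the top decile of efficiency in mature oocytes, and 10 were in the top decile in activated eggs. Sucrose gradients of wild-type lysates gave a polysomal share for each mRNA. It is the RPKM in medium and heavy polysomes (the 2 densest of 6 fractions) as a percentage of the RPKM summed over all 6. RPKM is scaled to each fraction's own library, so this share orders mRNAs and is not the part of an mRNA's copies on polysomes. Its median for the 15 best was 59.0% in mature oocytes and 44.4% in activated eggs, where the medians of all abundant mRNAs were 34.7% and 27.5%.

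The lowest efficiency in png eggs was that of RpLP1, which encodes an acidic protein of the large ribosomal subunit. It had 3.47 and 11.6 RPKM of footprints on 2004 and 2029 RPKM of RNA. This rests on 10 and 35 footprint reads (95% exact Poisson intervals 4.80 to 18.4 and 24.4 to 48.7, for counting error only), and the 2 states differed, at -8.81 and -7.33. Other ribosomal protein mRNAs followed. RpLP0 had 8.10 and 13.0 RPKM of footprints on 925 and 978 RPKM of RNA, RpS5b 8.11 and 10.8 on 778 and 796, and RpS2 22.2 and 35.6 on 1853 and 1951. An unnamed transcript had 13.4 and 24.7 RPKM of footprints on 2048 and 2138 RPKM of RNA. These 5 were as low in activated eggs, with efficiencies between -7.96 and -6.14. The inositol phosphatase mRNA Ipp was also low in each sample, at -5.60 and -5.11 in png eggs, -5.42 and -5.66 in activated eggs and -4.84 and -5.11 in mature oocytes. So was nanos, the translational repressor of the posterior pole, with 6.66 and 6.56 RPKM of footprints on 498 and 528 RPKM of RNA in png eggs and efficiencies of -6.03 and -6.13 there, -4.35 and -4.88 in activated eggs and -5.94 and -4.97 in mature oocytes.

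A further 6 of the 15 had more footprints than RNA in activated eggs. The most abundant of these was smg, smaug, an RNA-binding protein that represses and clears maternal mRNAs. In png eggs it had 11.1 and 12.7 RPKM of footprints (327 and 389 reads) on 753 and 791 RPKM of RNA, and in activated eggs 1349 and 1092 RPKM of footprints on 232 and 212 RPKM of RNA. Mature oocytes had 66.5 and 11.5 RPKM on 353 and 378. Footprints of smg in png eggs were close to the lower oocyte value and far under both values of activated eggs, and its RNA was highest in png eggs. Also among them were CG42354, the boundary factor Elba2, tube (tub, an adaptor of the Toll pathway) and the Rab GTPase-activating protein skywalker (sky). Their efficiencies lay between -5.79 and -5.06 in png eggs, between 0.24 and 2.27 in activated eggs and between -3.96 and -1.18 in mature oocytes. CG42354 had 8 and 12 footprint reads in png eggs and tub had 15 and 7, so their low values are known only roughly. The growth regulator Myc (-5.70 and -5.47 in png eggs, -1.73 and -1.38 in activated eggs) and indra (-5.55 and -5.65 in png eggs, -1.03 and -0.56 in activated eggs) lay between these sets. The last of the 15, sky, stood at -5.27.

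**Figure D3:**
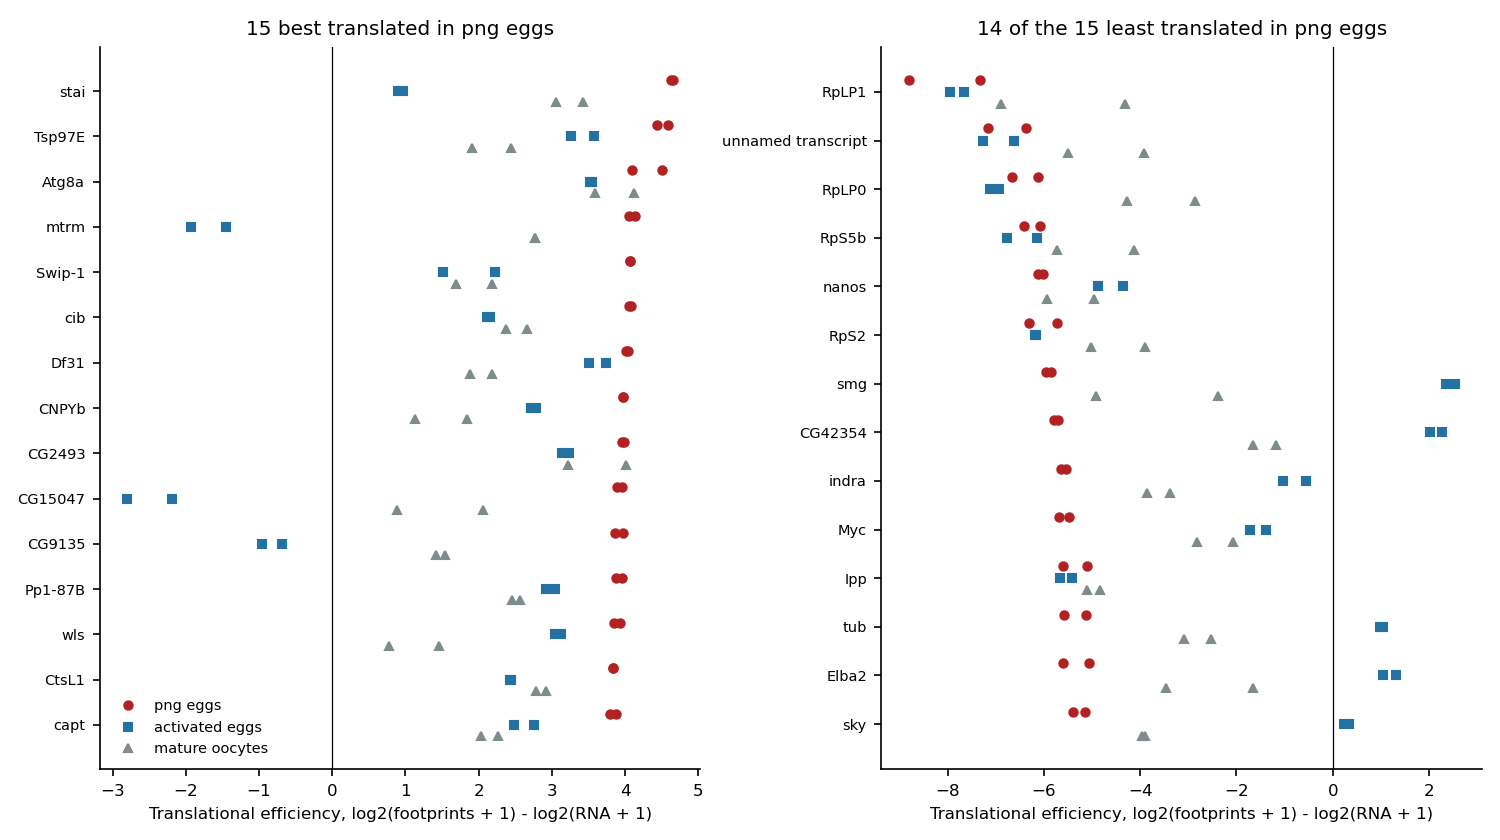
Efficiency (horizontal, log2) of the 15 best (left) and 14 of the 15 least (right) translated abundant mRNAs of png eggs, with both cycloheximide states as separate points, in png eggs (red circles), activated eggs (blue squares) and mature oocytes (grey triangles). All were chosen by the red points; among the least translated, smg, CG42354, tub, Elba2 and sky lie above 0 in activated eggs while RpLP1, the unnamed transcript, RpLP0, RpS5b, RpS2 and Ipp stay below -5 in both kinds of egg.

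Together the 15 least translated mRNAs held 0.0115% and 0.0167% of png egg footprints with 1.71% and 1.75% of the RNA, against 0.459% and 0.399% of footprints in activated eggs and 0.0512% and 0.0943% in mature oocytes, a difference in the direction that choosing them by png eggs gives. In mature oocytes 11 of them were in the lowest decile and 0 in the upper part of the ranking, above its median. In activated eggs 7 were in the lowest decile and 3 in the highest. Of the 15, 12 had gradient values, with median polysomal shares of 23.9% in wild-type mature oocytes and 21.0% in wild-type activated eggs.

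Over all abundant mRNAs, the png egg order was closer to that of mature oocytes than to that of activated eggs. The rank correlation of png egg efficiency was 0.66 with oocytes and 0.32 with activated eggs over 5625 transcripts, which share gene lengths and library preparation. Efficiency of activated eggs and oocytes had a rank correlation of 0.37. Wild-type gradients gave the same order, with rank correlations of 0.63 to the polysomal share in oocytes (5268 genes) and 0.18 to that in activated eggs (5048 genes). Of the 562 mRNAs of the best decile in png eggs, 280 were in the best decile in oocytes and 0 in the lowest, while 167 were in the best decile and 6 in the lowest in activated eggs. Of the 563 of the lowest decile, 237 were in the lowest decile in oocytes and 2 in the best. In activated eggs 152 were in the lowest decile and 47 in the best. The median oocyte polysomal share was 49.2% in the best decile and 27.2% in the lowest, and the median share in activated eggs was 37.1% and 23.5%. Efficiency had little relation to other features of the transcripts, with rank correlations of -0.13 to protein length, -0.03 and 0.03 to the lengths of the 5′ and 3′ untranslated regions (5569 transcripts) and -0.02 to the RNA level (5625). The best decile encoded shorter proteins, with a median of 360.5 amino acids against 484 in the lowest and 456 in all abundant mRNAs, and the 15 best had a median of 221.

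With limma, efficiency was higher in png eggs than in activated eggs for 1876 of 5840 transcripts (32.1%) and lower for 2218 (38.0%), and 2762 and 1823 after median centring, which moved the median difference to 0.43 from -0.11. Against mature oocytes 2105 were higher in png eggs (36.0%) and 1360 lower (23.3%), and 1959 and 1949 after centring (median difference -0.02 in place of 0.21). The oocyte counts also turn on single libraries: without the oocyte footprint library made with cycloheximide, 2167 were higher and 2122 lower, and without the one made free of it, 2912 were higher and 1434 lower. These contrasts are used next for named regulators and gene groups.

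The 37 regulators of egg activation and maternal mRNA spanned nearly the whole range, from -6.08 (nanos) to 4.09 (mtrm), with 15 having more footprints than RNA, 17 fewer, 10 in the best decile and 5 in the lowest. Efficiency was higher in png eggs than in activated eggs for 15 and lower for 15. Among the 3 members of the kinase complex, png itself was read in the mutant: it had 173 and 189 RPKM of footprints on 92.1 and 96.9 RPKM of RNA in png eggs, 18.1 and 10.3 on 101 and 102 in activated eggs, and 63.7 and 33.7 on 113 and 114 in mature oocytes. Its footprints were highest in png eggs and did not overlap the other groups. Its efficiency was 3.74 ± 0.32 (SE) higher in png eggs than in activated eggs (limma adjusted p = 7.48e-06). RNA and footprints of png were therefore present in the eggs labelled as mutant, and what the allele does to the protein was not measured. The activator mRNA gnu had fewer footprints than RNA, at -1.82 and -1.32 in png eggs, -2.71 and -2.39 in activated eggs and 0.98 and 0.46 in oocytes (png eggs minus activated eggs 0.99 ± 0.30, adjusted p = 0.0159). The call for gnu was lost without either activated egg RNA library (1.01 and 0.96), the activated egg footprint library free of cycloheximide (0.79), or the png egg RNA (0.96) or footprint (0.71) library with it. The third member, plu, had 2.22 and 2.18 in png eggs and 1.27 and 1.28 in activated eggs, a difference of 0.93 ± 0.39 that did not pass the threshold (adjusted p = 0.0560).

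Of the cyclins among the regulators, CycA and CycB had fewer footprints than RNA in png eggs and CycB3 had more. The call for CycB was lost without the png egg footprint library free of cycloheximide (-0.89, against -1.63 with all libraries). Both png egg states of CycB were low, at -1.72 and -1.53. The model's cycloheximide term is shared by all footprint libraries, so the -0.89 also carries the difference between the oocyte states. CycA, cyclin A, had 123 and 142 RPKM of footprints on 781 and 812 RPKM of RNA in png eggs, against 4016 and 3765 on 373 and 359 in activated eggs. Mature oocytes had 140 and 53.0 RPKM on 521 and 566, so footprints of png eggs and oocytes were close and those of activated eggs stood apart. The difference in efficiency between png and activated eggs was -5.99 ± 0.43 (adjusted p = 2.83e-06). CycB, cyclin B, had 393 and 471 RPKM on 1298 and 1366 RPKM of RNA in png eggs and 7668 and 7178 on 656 and 654 in activated eggs, a difference in efficiency of -5.13 ± 0.68 (adjusted p = 0.000122). In mature oocytes CycB differed between the states, with 1612 and 321 RPKM of footprints. RNA of CycA, CycB and smg was higher in both png egg libraries than in any activated egg library, which was not tested. The mitotic phosphatase string (stg) had 9.09 and 11.8 RPKM of footprints on 203 and 212 RPKM of RNA in png eggs, against 168 and 160 on 132 and 132 in activated eggs, a difference of -4.51 ± 0.35 (adjusted p = 4.69e-06). The kinase Greatwall (gwl) was lower by a similar amount (-4.60 ± 0.42, adjusted p = 1.12e-05). CycB3, the cyclin of late meiosis, had more footprints than RNA in png eggs, 442 and 488 RPKM on 129 and 131, and yet was 1.85 lower in efficiency than in activated eggs, with 1116 and 1060 on 86.4 and 81.3 (-1.85 ± 0.39, adjusted p = 0.00224).

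Several other cell cycle regulators had a higher efficiency in png eggs than in activated eggs. Mos, the meiotic kinase that feeds the MAP kinase pathway, had 172 and 179 RPKM of footprints on 64.6 and 67.9 RPKM of RNA in png eggs, against 3.06 and 2.23 on 77.4 and 77.0 in activated eggs and 95.4 and 47.2 on 78.9 and 78.1 in oocytes. Its RNA was alike across these samples, and its footprints were lowest in activated eggs (difference in efficiency 5.82 ± 0.32, adjusted p = 7.07e-07). Efficiency was also higher in png eggs than in activated eggs for endos, endosulfine, an inhibitor of protein phosphatase 2A (4.04 ± 0.17, adjusted p = 3.14e-07), and for mtrm (5.78 ± 0.23, adjusted p = 2.33e-07). Though listed as a regulator, mtrm is also among the best translated mRNAs, which were ranked by the same png egg values. That ranking favours a higher value in png eggs, and the p-value for mtrm does not allow for it. The meiotic activator of the anaphase-promoting complex, cort, had 44.4 and 46.3 RPKM of footprints on 68.2 and 66.0 in png eggs, 4.56 and 4.48 on 56.3 and 50.7 in activated eggs and 101 and 64.2 on 65.8 and 65.0 in oocytes. The phosphatase twine (twe) had 1.91 and 1.90 in png eggs and 0.87 and 1.26 in activated eggs (difference 0.84), and polo 1.41 and 1.24 in png eggs and 0.77 and 0.66 in activated eggs (difference 0.61). The call for polo was lost without the activated egg RNA library free of cycloheximide (0.60) or either png egg RNA library (0.60 and 0.62). The mitotic activator of the same complex, fzy, had 424 and 408 RPKM of footprints in png eggs and 507 and 453 in activated eggs, and its efficiencies did not differ past the threshold (-0.54 ± 0.23, adjusted p = 0.0589). Sarah (sra), a regulator of calcineurin needed for egg activation, had 7.14 and 11.7 RPKM on 56.2 and 57.6 in png eggs and 119 and 144 on 37.6 and 38.4 in activated eggs (-4.27 ± 0.24, adjusted p = 9.14e-07). For the calcineurin subunit CanB2 the difference had the opposite sign (1.70 ± 0.30, adjusted p = 0.000789).

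Translational repressors divided. The partners cup, tral and me31B act together in repressed mRNA particles, and bru1 binds repressed maternal mRNAs. In png eggs tral had 6078 and 6304 RPKM of footprints on 724 and 769 RPKM of RNA, against 1297 and 1320 on 1173 and 1056 in activated eggs. Efficiency was higher in png eggs for tral (2.82 ± 0.27, adjusted p = 1.38e-05), cup (2.11 ± 0.20, adjusted p = 1.60e-05) and bru1 (3.35 ± 0.17, adjusted p = 5.35e-07). For me31B, with 1044 and 997 RPKM of footprints on 2021 and 2031 in png eggs and 1235 and 1472 on 2132 and 2182 in activated eggs, no difference passed the threshold (-0.31 ± 0.18, adjusted p = 0.151). Lower efficiencies in png eggs than in activated eggs were found for smg (-8.36 ± 0.68, adjusted p = 5.82e-06) and brat (-3.16 ± 0.38, adjusted p = 6.12e-05). Though listed as a regulator, smg is also among the least translated mRNAs, which were ranked by the same png egg values. That ranking favours a lower value in png eggs, and the p-value for smg does not allow for it. The repressor pum had 0.79 and 0.90 in png eggs and 1.19 and 1.44 in activated eggs, and the difference of -0.47 did not pass (adjusted p = 0.297). For BicC the difference was -0.28 (adjusted p = 0.417). The poly(A) polymerase wispy (wisp) had few footprints for its RNA in both kinds of egg, with a mean efficiency of -2.05 in png eggs and -2.69 in activated eggs. Its difference of 0.65 lost the threshold when any 1 RNA library was left out (0.60 to 0.70), without the activated egg footprint library free of cycloheximide (0.47) and without the png egg footprint library with it (0.54). For orb, which promotes translation in the germline, efficiency was lower still, at -3.18 and -2.96 in png eggs and -3.87 and -3.63 in activated eggs. Fzr (fzr), another activator of the anaphase-promoting complex, had -2.01 and -2.25 in png eggs and -1.68 and -1.51 in activated eggs.

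Of the axis and zygotic regulators, Tl, hb, cad, bcd, osk and zld had lower efficiencies in png eggs than in activated eggs. Toll (Tl), the receptor of the dorsal-ventral pathway, had 58.0 and 59.2 RPKM of footprints on 67.8 and 74.4 RPKM of RNA in png eggs, against 727 and 723 on 37.1 and 28.9 in activated eggs (difference -4.70 ± 0.23, adjusted p = 4.52e-07). In activated eggs its efficiency, 4.25 and 4.60, was among the highest of all abundant mRNAs. Hunchback (hb) was 2.76 lower in png eggs, caudal (cad) 2.17 lower and bicoid (bcd) 1.51 lower. Of these, bcd had 11.1 and 12.6 RPKM of footprints on 25.5 and 22.5 RPKM of RNA in png eggs, against 27.3 and 23.3 on 18.6 and 15.3 in activated eggs. The posterior determinant oskar (osk) had 20.2 and 21.5 RPKM on 316 and 318 in png eggs and 27.7 and 26.7 on 286 and 249 in activated eggs, and it was low in both (difference -0.61 ± 0.21, adjusted p = 0.0238). That call for osk was lost after centring (-0.07), and without either oocyte RNA library (-0.61), either png egg RNA library (-0.66 and -0.57), the png egg footprint library free of cycloheximide (-0.49), or the activated egg RNA (-0.50) or footprint (-0.59) library with it. The zygotic genome activator zelda (zld) had 151 and 155 RPKM on 88.6 and 91.2 in png eggs and 346 and 399 on 76.1 and 66.0 in activated eggs, against 15.1 and 8.48 on 76.0 and 92.5 in oocytes. Its efficiency in png eggs thus lay between that of activated eggs, from which it differed by -1.62 ± 0.32 (adjusted p = 0.00161), and that of oocytes.

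**Figure D4:**
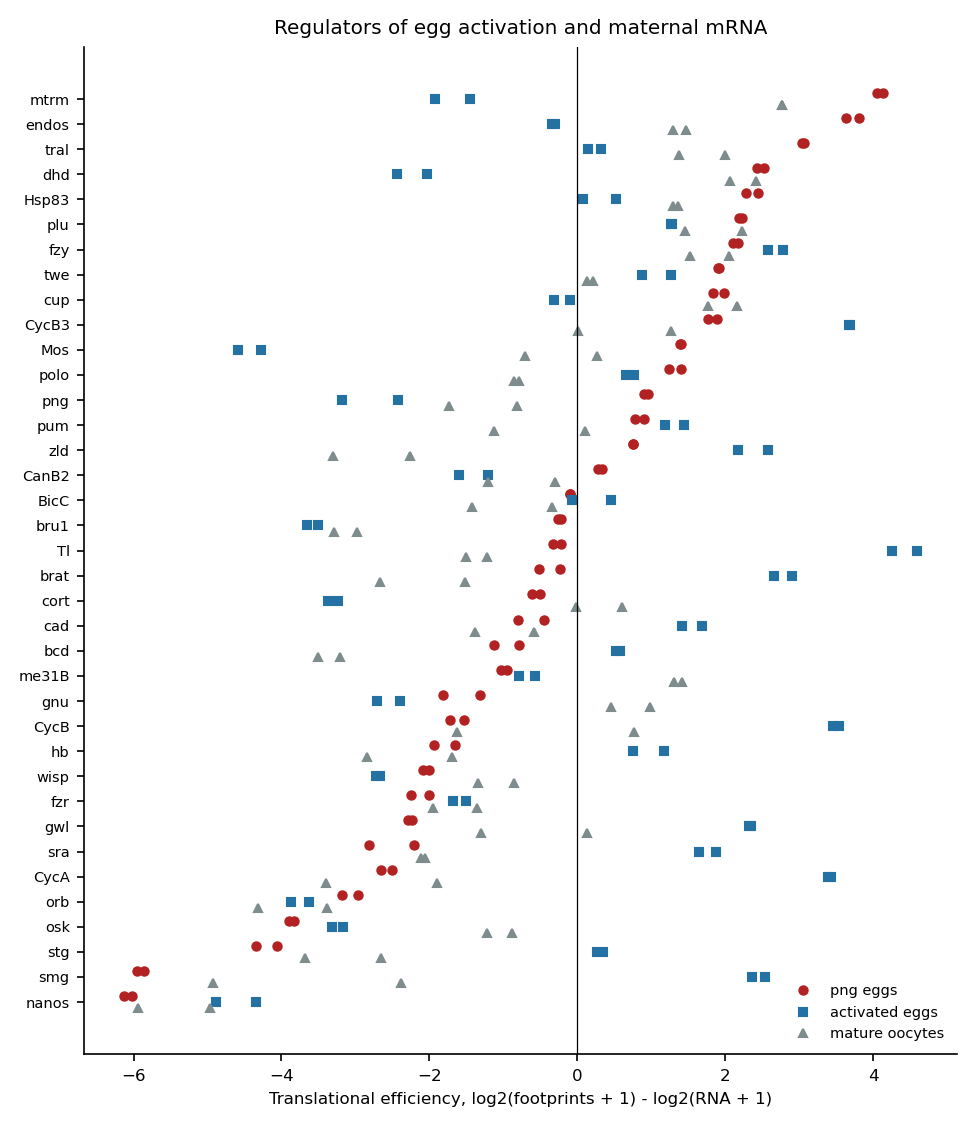
Efficiency (horizontal, log2) of 37 regulators in png eggs (red circles), activated eggs (blue squares) and mature oocytes (grey triangles), both cycloheximide states as separate points, ordered by png eggs. From mtrm (4.14 and 4.05) to nanos (-6.03 and -6.13) the red points run across the plot, with activated eggs far to their right for CycA, CycB, Tl and smg and far to their left for Mos, mtrm and dhd.

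Gene groups were read against all 5840 transcripts tested, of which 32.9% had more footprints than RNA in png eggs and 48.0% fewer, with a median of -0.36. The highest and lowest members named in each group were picked by their png egg values. That choice favours a difference from activated eggs in the same direction, which the test does not allow for, so values of single members are a description. The highest group median was that of 8 tubulins and actins (1.92), followed by proteasome subunits. Of 31 proteasome subunits, 28 had more footprints than RNA and 1 fewer, with a median efficiency of 1.58, and 30 and 0 after centring. The lid subunits Rpn6 (1215 and 1150 RPKM of footprints on 141 and 142 of RNA) and Rpn7 (812 and 864 on 112 and 115) were highest, and Rpn2 (167 and 160 on 160 and 154) and Rpn5 (-0.27 and -0.47 in efficiency) lowest. Against activated eggs 18 subunits were higher in png eggs and 1 lower, and 28 and 0 after centring.

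Of 68 subunits of the respiratory chain and ATP synthase, 55 had more footprints than RNA and 4 fewer (median 1.02). The alpha and beta subunits of the ATP synthase were highest, blw with 2574 and 2832 RPKM of footprints on 278 and 291 RPKM of RNA and ATPsynbeta with 3175 and 2962 on 506 and 519. SdhA (-0.93 and -0.93) and ND-MNLL (-1.49 and -0.61), of complexes II and I, were lowest. Against activated eggs 29 were higher and 1 lower, and 62 and 1 after centring. Of 36 DNA replication mRNAs, 24 had more footprints than RNA and 5 fewer (median 1.42), and 14 were in the best decile. The nucleotide pool enzyme dUTPase had 3035 and 3040 RPKM of footprints on 223 and 237 RPKM of RNA in png eggs, and RPA3, of the single-strand binding complex, 1115 and 1002 on 154 and 150. The lowest were Gnf1 of the clamp loader (-1.19 and -1.39) and Orc1 of the origin recognition complex (-1.55 and -1.55). Against activated eggs 29 replication mRNAs were higher in png eggs and 5 lower, a median difference of 1.76 where that of all transcripts was -0.11. Orc1 was among the 5 lower, with 36.4 and 36.6 RPKM of footprints on 109 and 109 in png eggs and 230 and 207 on 66.6 and 60.7 in activated eggs.

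Of 18 chaperones, 14 had more footprints than RNA and 2 fewer (median 1.32), with the ER chaperone Hsc70-3 (2.53 and 2.34) and DnaJ-1 (2.39 and 2.43) highest and the mitochondrial Hsp60A (-0.70 and -0.52) and Hsc70-5 (-1.57 and -1.56) lowest. Against activated eggs 12 were higher and 1 lower. Of 8 tubulins and actins 7 had more footprints than RNA and 1 fewer. The cytoplasmic actins Act42A (919 and 912 RPKM of footprints on 87.0 and 88.6 RPKM of RNA) and Act5C (4744 and 5461 on 495 and 532) were highest. The maternal alphaTub67C had 703 and 711 RPKM on 398 and 389 in png eggs, against 43.9 and 28.0 on 392 and 376 in activated eggs. The exception was gammaTub23C of the centrosome, with 1.53 and 2.51 RPKM on 67.4 and 63.9 in png eggs (21 and 36 reads) and 163 and 153 on 41.1 and 40.0 in activated eggs. Of the group, 5 were higher in png eggs than in activated eggs and 1 lower.

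**Figure D5:**
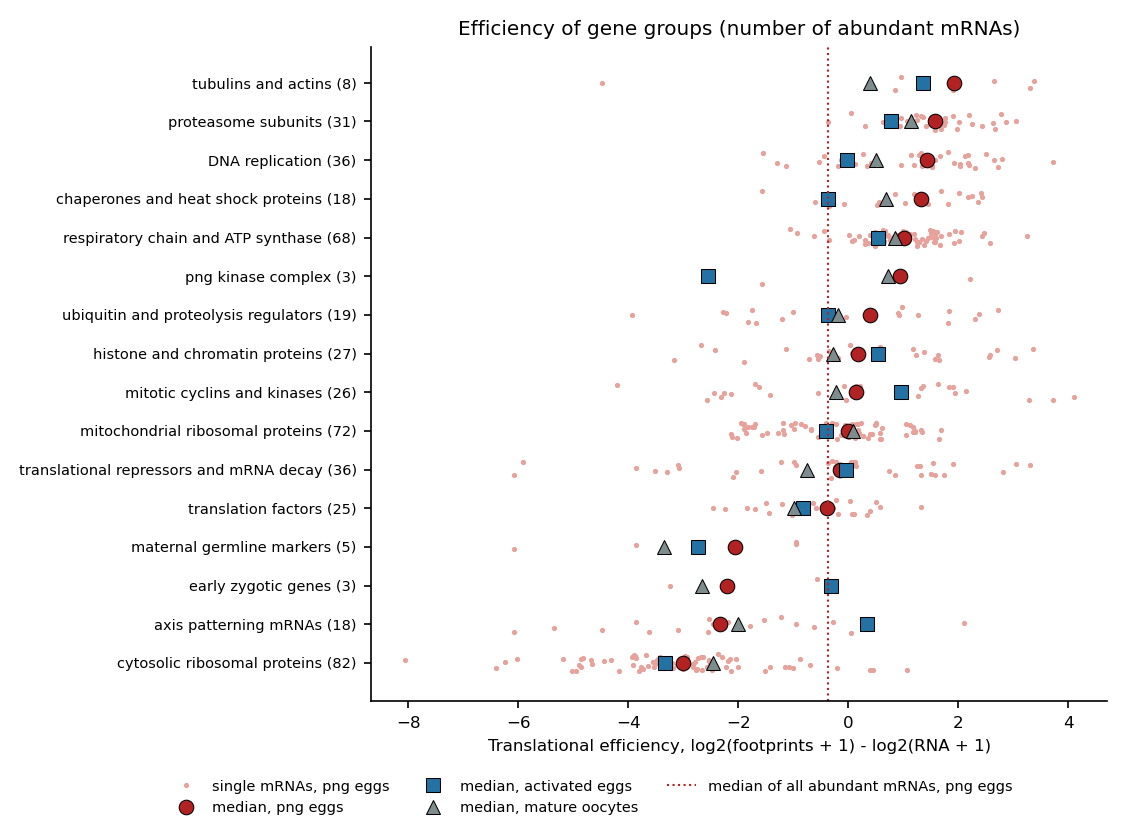
Efficiency (horizontal, log2) of the abundant mRNAs of each gene group in png eggs (small points, 1 per mRNA), with group medians in png eggs (red circles), activated eggs (blue squares) and mature oocytes (grey triangles) and the median of all abundant mRNAs in png eggs (dotted line, -0.38). The png egg medians of proteasome subunits and DNA replication mRNAs lie to the right of the line. Medians of cytosolic ribosomal proteins lie to its left in all 3 kinds of sample, and the axis patterning median is positive in activated eggs alone. Single mRNAs of the replication and cytosolic ribosomal groups lie on both sides of the line.

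Cytosolic ribosomal proteins were furthest below. Of 83, 78 had fewer footprints than RNA and 2 more (median -3.01 of those abundant), and 45 of the 82 abundant ones were in the lowest decile. They held 3.13% and 3.54% of png egg footprints and 25.4% and 25.7% of the RNA, counted by RPKM, which gives short mRNAs more weight. The group was low in the wild type too, with median efficiencies of -3.01 in png eggs, -3.33 in activated eggs and -2.46 in mature oocytes. Against mature oocytes 4 were higher in png eggs and 38 lower, a median difference of -0.54 where that of all transcripts was 0.21. Against activated eggs 27 were higher and 7 lower, and 51 and 1 after centring. The highest of the list were RpLP0-like (180 and 181 RPKM of footprints on 86.2 and 86.1 RPKM of RNA) and RpL7-like (103 and 126 on 80.8 and 86.4). Their names mark likeness to ribosomal proteins, and whether they are parts of the ribosome was not examined. Mitochondrial ribosomal proteins did not share the low median of the cytosolic group. Their median was 0.00, with 17 of 72 having more footprints than RNA and 27 fewer, or 37 and 22 after centring, and none in the lowest decile. They ran from mRpL51 (1.54 and 1.82) and mRpL2 (1.57 and 1.74) to mRpL37 (-2.24 and -1.98) and mRpL46 (-2.23 and -2.02), and 21 were higher and 11 lower than in activated eggs, or 46 and 4 after centring. Of 25 translation factors, 4 had more footprints than RNA and 12 fewer (median -0.40), or 7 and 10 after centring. The poly(A)-binding protein pAbp had 1004 and 1031 RPKM of footprints on 397 and 413 RPKM of RNA in png eggs, against 95.8 and 75.7 on 606 and 636 in activated eggs and 150 and 206 on 468 and 509 in oocytes. The initiation factor eIF1A was next (0.51 and 0.64), and eIF5B (-2.34 and -2.17) and CG7483 (-2.51 and -2.42), the helicase of the exon junction complex, were lowest. CG7483 had 16.5 and 17.6 RPKM of footprints on 98.8 and 98.8 in png eggs and 357 and 348 on 72.1 and 75.8 in activated eggs. Of the translation factors 9 were higher in png eggs than in activated eggs and 6 lower, or 14 and 4 after centring.

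Of 19 axis patterning mRNAs, 15 had fewer footprints than RNA and 1 more (median -2.19), or 14 and 3 after centring. Against activated eggs 14 were lower in png eggs and 4 higher, a median difference of -1.51. The 1 with more footprints than RNA before centring was dorsal (dl), the transcription factor at the end of the Toll pathway. It was also 1 of the 4 higher than in activated eggs. Values of dl were 197 and 199 RPKM of footprints on 45.1 and 45.9 RPKM of RNA in png eggs and 10.1 and 14.5 on 60.9 and 55.8 in activated eggs. The ligand of the pathway, spz, had 80.2 and 89.6 on 83.8 and 80.6 in png eggs, against 122 and 126 on 61.1 and 61.2 in activated eggs. Receptor (Tl), ligand (spz) and adaptor (tub) thus had fewer footprints in png eggs than in activated eggs, and dl had more. All 5 germline markers had fewer footprints than RNA (median -2.06), with vas highest (180 and 174 RPKM on 345 and 339), and against activated eggs 4 were lower and 1 higher (2 and 1 after centring). The 3 early zygotic genes in the table, Sxl (-0.52 and -0.61), slam (-2.38 and -2.05) and Nin (-3.22 and -3.27), had fewer as well. The call for Sxl was lost after centring (-0.12), without the png egg footprint library free of cycloheximide (-0.46) and without the png egg RNA library with it (-0.37).

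The remaining groups held high and low members together. Of 26 mitotic cyclins and kinases 11 had more footprints than RNA and 10 fewer (median 0.14), or 16 and 9 after centring, and 6 were higher and 12 lower than in activated eggs. Of 36 repressors and decay factors 13 had more and 13 fewer (median -0.16), led by the Y-box protein yps (584 and 777 RPKM of footprints on 64.5 and 71.0 RPKM of RNA). Of these, 16 were higher and 11 lower than in activated eggs, or 22 and 9 after centring. Of 27 histone and chromatin mRNAs 11 had more and 8 fewer (median 0.18), or 16 and 6 after centring. The replacement histone His3.3B (4518 and 4805 RPKM on 443 and 469) and the histone chaperone asf1 (1090 and 873 on 117 and 120) were highest, and Top1 (-2.65 and -2.71) and the chaperone Nap1 (-3.25 and -3.10) lowest. Against activated eggs 13 were higher and 7 lower. Of 20 ubiquitin and proteolysis mRNAs 9 had more and 9 fewer (median 0.18), from the conjugating enzymes vih (901 and 846 on 128 and 133) and ben (1014 and 994 on 188 and 198) to mr, a subunit of the anaphase-promoting complex, (-2.28 and -2.28) and RpS27A, a ubiquitin fused to a ribosomal protein (142 and 168 on 2363 and 2399). Of this group 10 were higher and 5 lower than in activated eggs. In png eggs vih, picked by these values, stood at 2.80 and 2.66, against -0.27 and -0.08 in activated eggs and 2.49 and 2.42 in mature oocytes.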

How the data were processed

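The authors deposited 1 table of RPKM values per transcript for the 12 footprint and RNA libraries, per the file headers, and gradient tables that hold, for each gene, RPKM and the fraction of its mRNA in each gradient part, deposited as a number from 0 to 1. The submitters' processing notes name TopHat 1.3.2, Bowtie, HTSeq, FastQC and the build dm3 but not what each was used for. Polysomal shares were computed from the RPKM of the gradient parts and not from the deposited fractions of mRNA. Heavy-polysome RPKM values start at 4, so mRNAs absent from heavy polysomes have no polysomal share, and each stage had 2 gradients. Of 5842 transcripts 5784 matched a gene record, and no sequences or coordinates were used here.

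RPKM values of low transcripts were whole multiples of 1 read for 98.2% to 99.6% of values under 200 reads (within 0.05 of a read), with the length taken as the coding sequence less 50 bases, and this gave the library totals. Shares are percentages of a library's summed RPKM. Efficiencies, called higher or lower where they passed the test, were tested with limma 3.58.1 (lmFit, eBayes with a trend, two-sided, Benjamini-Hochberg threshold 0.05) in R 4.3.3 on log2(RPKM + 1), over the 5840 transcripts with a mean of 1 RPKM or more. The model held 6 assay-by-sample groups and a cycloheximide term per assay, over 12 libraries that shared 1 estimate of the spread. Each cycloheximide term was the same for the 3 kinds of sample. The median difference in efficiency, with cycloheximide minus without, was -0.43 in oocytes, 0.02 in png eggs and 0.04 in activated eggs. The oocyte shift thus enters the spread and the fits with a library left out. Fold changes of low transcripts are understated on this scale. On simulated data the footprint against RNA test recovered 99 of 100 transcripts changed by 2 (log2) and 74 of 100 changed by 1, with 10 false calls, and the test between kinds of egg 88 and 50, with 7 false calls. The simulation had independent normal errors of the fitted spread, no cycloheximide effect and no other changed transcripts. In the data 4722 of 5840 were called, so it checks the fitting and does not give the error rates of these data. The rest used scipy 1.17.1, numpy 2.4.6, matplotlib 3.10.9 and pandas 2.3.3 under Python 3.11.15.

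Named mRNAs are the 15 highest and 15 lowest efficiencies, the 10 largest in footprints and in RNA, 37 regulators, and the 2 highest and 2 lowest abundant members of each further list. Of the 15 lowest, 1 is not reported here. Members and lists were chosen with earlier results of these data known. Alternatives were other pseudocounts, filters and limits, median centring, png egg libraries alone, no cycloheximide term, pairing by state, and each library left out.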

Additional observations from a re-analysis of the deposited data

Results flagged for a closer look

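Of the 37 regulators, 30 had an efficiency that differed between png eggs and activated eggs by the test of the difference itself (limma, adjusted threshold 0.05). Most transcripts did so, 4094 of all 5840 tested (32.1% higher and 38.0% lower), so the count does not set the regulators apart. Their differences, png eggs minus activated eggs on the log2 scale, are given here as values. Among kinases, phosphatases and cyclins of the cell cycle they were 5.82 for Mos, 5.78 for mtrm, 4.04 for endos, 0.84 for twe and 0.61 for polo, and -1.85 for CycB3, -4.51 for stg, -4.60 for gwl, -5.13 for CycB and -5.99 for CycA. The anaphase-promoting complex activator cort had 2.75. In the kinase complex png had 3.74 and gnu 0.99. Of calcium signalling CanB2 had 1.70 and sra -4.27. For dhd the difference was 4.71 and for Hsp83 2.06. Among mRNA-binding regulators it was 3.35 for bru1, 2.82 for tral, 2.11 for cup and 0.65 for wisp, and -1.46 for nanos, -3.16 for brat and -8.36 for smg. The best translated mRNAs include mtrm, and the least translated include nanos and smg. Ranking by png eggs favours the signs of these differences, which the test does not allow for. The call for nanos was lost after median centring (-0.92) and in 6 of 12 omissions of a library (-1.61 to -0.84). Of the axis and zygotic regulators in this set the differences were -0.61 for osk, whose call was lost after centring (-0.07) and in 7 of 12 omissions (-0.66 to -0.49), -1.51 for bcd, -1.62 for zld, -2.17 for cad, -2.76 for hb and -4.70 for Tl.

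The kinds of egg had 1 library each per assay and state, and the labels name no background strain for the png females, so genotype, strain background and the collection of eggs cannot be told apart.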

How the results depend on the processing

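Each library left out, other pseudocounts and filters and no cycloheximide term kept the counts of transcripts with more or fewer footprints than RNA within 1.5 times of the values reported, and the same held for the counts against activated eggs. Png egg libraries alone, which allow only footprints against RNA, gave 2156 higher and 3040 lower. Whether footprint and RNA libraries of the same state form pairs was not settled. Deviations of footprint and RNA libraries from their group means had correlations of 0.03 in png eggs, 0.14 in activated eggs and 0.14 in mature oocytes. The png egg RNA libraries differed by little more than counting error, so the value in png eggs could hardly show a pairing. With a replicate block by state, 4710 transcripts differed between footprints and RNA (1909 higher, 2801 lower). Depth limits the lowest values, since several of the least translated mRNAs rest on under 50 footprint reads, and biological variation was not measured.

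Median centring changed many counts in gene groups. It moved the zero line as given above and also took out shifts of whole libraries between the states. The part of each in the changed counts was not tested. Footprints against RNA then were higher for 3 axis patterning mRNAs, 7 translation factors, 4 cytosolic and 37 mitochondrial ribosomal proteins, and lower for 3 DNA replication mRNAs, 1 chaperone, 2 respiratory subunits and 0 proteasome subunits. Against activated eggs, 14 translation factors, 51 cytosolic and 46 mitochondrial ribosomal proteins, 28 proteasome and 62 respiratory subunits were higher, and 3 DNA replication mRNAs, 1 cytosolic and 4 mitochondrial ribosomal proteins and 0 proteasome subunits lower. Centring also turned the sign of footprints against RNA for RpS3A (0.23), BicC (0.35), Tl (0.17), brat (0.066), bru1 (0.21) and Rpn5 (0.074), and of png eggs against activated eggs for BicC (0.26), fzr (0.0071), fzy (0.0036), me31B (0.23) and pum (0.070).

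With 1 library left out, counts against mature oocytes ranged from 1018 to 2122 lower, with 2122 reached without the oocyte footprint library with cycloheximide. Footprints against RNA ranged from 3 to 5 lower for DNA replication, 1 to 3 lower for chaperones, 1 to 5 higher for translation factors, 1 to 3 higher for cytosolic and 11 to 22 higher for mitochondrial ribosomal proteins, 0 to 1 lower for proteasome subunits and 2 to 5 lower for respiratory subunits. Against activated eggs the ranges were 3 to 5 lower for DNA replication, 13 to 37 higher and 4 to 9 lower for cytosolic ribosomal proteins, 15 to 36 higher and 4 to 15 lower for mitochondrial ones, and 19 to 47 higher and 1 to 3 lower for respiratory subunits. Fewer residual degrees of freedom accompany each omission, and the cause of single changes was not tested. Some small differences turned sign when 1 png egg library was left out. Through the shared cycloheximide term such fits also carry the shift between states in the other samples, so they do not measure disagreement between png egg libraries alone. Footprints against RNA ranged from -0.039 to 0.24 for eEF1alpha1, -0.52 to 0.33 for BicC, -0.098 to 0.71 for CanB2, -0.79 to 0.039 for brat, -0.097 to 0.18 for spz and -0.071 to 0.18 for Rpn2, with the lowest or highest value from leaving out 1 of the footprint libraries, and spz was also -0.047 without the RNA library with cycloheximide. Png eggs against activated eggs ranged from -0.71 to 0.14 for BicC.

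Of the 15 least translated mRNAs, 9 remained with a pseudocount of 0.1 and 8 with 5, and of the 15 best, 11 remained with a limit of 25 RPKM. Weighting RPKM by coding length gave the best decile 43.75% of footprints and 9.82% of RNA, the lowest decile 0.747% and 15.2%, the 15 best 3.10% and 0.244%, the 15 least 1.18% of RNA, and cytosolic ribosomal proteins 1.08% of footprints and 8.69% of RNA, as means of both states. Over at least 100 bases of counted length, a limit chosen after seeing the data, 14 of the 15 least and all 15 best remained. Among named mRNAs, 3042 values in all kept direction and call, 58 lost the call, 44 gained it and 19 reversed. Of the counts and shares of sets, 1131 values stayed close and 75 moved further.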

Other observations

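Some abundant mRNAs stood at opposite ends of the ranking in the 2 kinds of egg, and the examples here were chosen after their values were seen, so they are given without a test. The amino acid transporter path was in the best decile in png eggs, with 536 and 541 RPKM of footprints on 114 and 114 RPKM of RNA and efficiencies of 2.22 and 2.24, against -4.71 and -4.33 in activated eggs and -2.29 and -1.96 in mature oocytes. The glycolytic enzyme Gapdh2 had 2.15 and 2.10 in png eggs, -3.69 and -4.07 in activated eggs and 1.72 and 1.51 in mature oocytes. The mismatch repair gene Msh6 had 2.87 and 2.80 in png eggs, -3.10 and -3.25 in activated eggs and 1.70 and 0.81 in mature oocytes. In the other direction the Notch ligand Delta had 2.90 and 4.86 RPKM of footprints on 44.4 and 44.3 RPKM of RNA in png eggs, efficiencies of -3.54 and -2.95, against 3.65 and 3.71 in activated eggs and -1.46 and -2.17 in mature oocytes. Su(H), the transcription factor of the Notch pathway, had a mean of -3.29 in png eggs, 3.36 in activated eggs and -2.34 in mature oocytes. For fax the values were -3.16 and -2.90 in png eggs, 3.54 and 3.33 in activated eggs and -0.47 and -1.46 in mature oocytes.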
